A study of Homo sapiens with 21 samples.

Results

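DAF-mut9 is a mutant of EWS/FLI, the fusion oncoprotein of Ewing sarcoma, and the question here was which transcripts its cDNA changed in cells depleted of the endogenous fusion. The comparison holds 6 of the 21 RNA-seq libraries of the series, namely the 3 DAF-mut9 libraries and the 3 iEF libraries, chosen by their labels with the replicate number as a block. All cells were A673, an established Ewing sarcoma cell line that carries the fusion. The iEF cells received an shRNA against the 3′ UTR of the fusion transcript and an empty cDNA vector. The DAF-mut9 cells received the same shRNA and a 3XFLAG-tagged cDNA with a large internal deletion of the EWS domain (the mut9 form) in which every tyrosine left in the degenerate hexapeptide repeats was replaced by alanine. Beside them stand 3 libraries each of mut9, which keeps these tyrosines, of Δ22 (labelled del22), which lacks nearly the whole EWS domain, and of iLuc, where an shRNA against luciferase leaves the endogenous fusion in place with an empty vector. In all of these groups the shRNA was delivered on day 1 and selected with 2 µg/mL puromycin, the cDNA or empty retroviral vector followed on day 5, and 400 µg/mL hygromycin B was added from day 6 to day 16. All values come from this single cell line. Sample titles were used to assign the mut9d count columns to DAF-mut9, and all values of this group rest on that assignment.

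EWS/FLI joins the low-complexity amino-terminal domain of the RNA-binding protein EWS to the ETS DNA-binding domain of FLI1. The FLI part binds GGAA-containing DNA, both at single ETS sites and at GGAA microsatellites, while the tyrosine-rich repeats of EWS mediate self-association and recruitment of chromatin regulators. The fusion activates a large set of genes and represses another, which includes many mesenchymal and inflammatory genes. A form that keeps the ETS domain but has lost the tyrosines therefore holds a DNA-binding protein with a changed partner domain.

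The 6 libraries held 33318415 to 44818396 counts, so that 1 CPM (a count per 1000000 counts of the TMM-scaled library) corresponded to at least 32 counts. Mitochondrial protein-coding transcripts took 0.409% to 0.727% of counts and the 10 most abundant genes 11.1% to 14.3%. The iEF libraries were more scattered than the DAF-mut9 libraries. Pairs of DAF-mut9 libraries correlated at 0.991 to 0.996 on the log2 scale and pairs of iEF libraries at 0.961 to 0.982, and the median SD of log2 CPM over 12401 genes was 0.111 for DAF-mut9 and 0.204 for iEF. The iEF library of replicate 3 held the highest level of many lowered genes, so results are given with and without it. Among 7 Ewing sarcoma markers, STEAP1 ran from 36.4 to 63.5 CPM and VIM from 1980 to 3130 CPM over the 6 libraries. VIM was higher with DAF-mut9 (log2 fold change 0.45 ± 0.12 SE, edgeR adjusted p = 0.038). This call was lost whichever of the 6 libraries was left out (adjusted p up to 0.206, without iEF replicate 3). VIM was lower in iLuc, at 809, 642 and 613 CPM. NKX2-2 ran from 1.23 to 2.09 CPM with DAF-mut9 and from 0.747 to 1.38 CPM in iEF. NR0B1 was lower with DAF-mut9, at 5.5 to 10.4 CPM against 10.9 to 23.2 CPM. FLI1 and EWSR1 are described below. CD99 had at most 3 counts in any of the 6 libraries. The annotation lists this gene on both sex chromosomes, where reads have 2 places to match, so its count is uncertain. Of 8 epithelial, 8 hematopoietic, 6 endothelial and 7 muscle markers, 4, 5, 3 and 5 were under 1 CPM in all 6 libraries. CD3E, which defines T cells, was at 0. The summed endothelial markers ran from 19.1 to 25.3 CPM with DAF-mut9 and from 6.48 to 27.1 CPM in iEF, and the summed hematopoietic markers from 4.36 to 4.91 CPM and from 5.82 to 28.4 CPM.

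Reads on FLI1 count the native gene, any remaining fusion transcript and the FLI part of the cDNA together. FLI1 (ENSG00000151702, chromosome 11, 128556430 to 128683162; GRCh37) was at 34.6, 37 and 37.3 CPM in DAF-mut9 replicates 1 to 3 and at 20.8, 20 and 21.1 CPM in iEF. Every DAF-mut9 library was above every iEF library (log2 fold change 0.81 ± 0.13 SE, adjusted p = 0.00164; edgeR quasi-likelihood test with Benjamini-Hochberg adjustment over all genes, as for every adjusted p). EWSR1, whose native transcript is shared by all groups, was at 239, 233 and 253 CPM with DAF-mut9 and at 258, 233 and 273 CPM in iEF, and its groups overlapped (log2 fold change -0.07 ± 0.09 SE, adjusted p = 0.793). The shares of the cDNA, the fusion and the native gene in the FLI1 count cannot be told apart.

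Among the genes that differed most between DAF-mut9 and iEF, IGFBP5, CXCR4 and GAP43 were higher and IL6, C3 and BIRC3 lower. Of 30549 genes tested, 1038 differed from iEF (3.40%), with 384 higher (1.26%) and 654 lower (2.14%). At least a 2-fold change was seen in 197 of the higher and 451 of the lower genes. The median log2 fold change was 1.03 for the higher and -1.47 for the lower genes, against -0.02 over all genes tested. In 995 of the 1038 genes the difference had the same sign in all 3 replicate sets, and in 916 the 3 DAF-mut9 libraries did not overlap the 3 iEF libraries, whereas 17.4% of all tested genes had libraries that did not overlap. Protein-coding genes made up 849 of the calls, among 16417 tested, and lncRNA genes 127, among 6460 tested. The 3.40% covers all gene types together, and the called share was larger among protein-coding than among lncRNA genes.

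The lowered genes depended more on iEF replicate 3 than on the other iEF libraries. Among the 654 lower genes, iEF replicate 3 held the highest iEF value for 414, replicate 2 for 202 and replicate 1 for 38. Among the 384 higher genes the lowest iEF value lay in replicate 3 for 160, in replicate 2 for 148 and in replicate 1 for 76. Without iEF replicate 3, 379 genes were called (1.24%), of which 355 were among the 1038, and the split became 169 higher and 210 lower. Without DAF-mut9 replicate 1, 2 or 3 the count was 323, 340 or 429. With no replicate block it was 684.

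**Figure D1:**
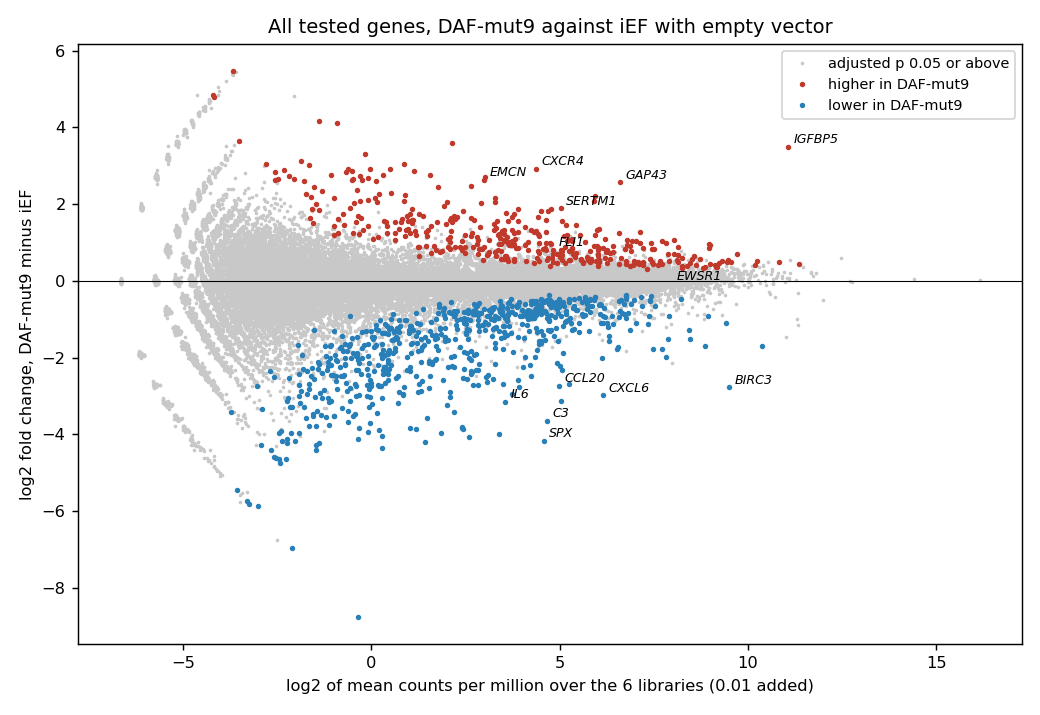
Each point is 1 of the 30549 tested genes, with the log2 of its mean CPM over the 6 libraries (plus 0.01) on the horizontal axis and the log2 fold change of DAF-mut9 against iEF on the vertical axis. The 384 genes called higher are red and the 654 called lower are blue, and IGFBP5 stands out as the raised gene with a high level.

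The 12 genes named as most raised fell into secreted factors, surface receptors, neural proteins and a homeobox factor. IGFBP5, a secreted protein that binds insulin-like growth factors, had the largest rise of the 12 and the lowest adjusted p of all genes tested (ENSG00000115461, chromosome 2, 217536828 to 217560272). Its levels were 3800, 5250 and 2720 CPM in DAF-mut9 replicates 1 to 3 and 424, 278 and 315 CPM in iEF (log2 fold change 3.50 ± 0.25 SE, adjusted p = 3.26e-07). The lowest DAF-mut9 library was thus several times above the highest iEF library. POSTN, the matricellular protein periostin, was at 94, 107 and 94.7 CPM against 16.3, 21.7 and 30.1 CPM (log2 fold change 2.20 ± 0.31 SE, adjusted p = 0.000504). Its DAF-mut9 libraries were close together and its iEF libraries were all lower.

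Surface proteins associated with endothelium or cell migration were raised next to these. CXCR4, the receptor of the chemokine CXCL12, lies on chromosome 2 (136871919 to 136876747). CXCR4 was at 24.2, 49.6 and 37.8 CPM with DAF-mut9 and at 5.18, 2.57 and 5.46 CPM in iEF (log2 fold change 2.93 ± 0.40 SE, adjusted p = 0.000385), with replicate 2 the highest among the DAF-mut9 libraries and the lowest among the iEF libraries. The log2 fold change moved most with 1 library left out for CXCR4 (3.55 without iEF replicate 1). The receptors and glycoproteins of endothelial cells followed at lower levels. EMCN, the endothelial sialomucin endomucin, was at 14.2, 10.8 and 15.8 CPM against 2.01, 1.85 and 2.81 CPM (log2 fold change 2.63 ± 0.43 SE, adjusted p = 0.00178). CD93, a C-type lectin-like receptor of endothelial and myeloid cells, was at 8.01, 10.7 and 13.3 CPM against 2.43, 0.907 and 2.24 CPM (log2 fold change 2.48 ± 0.40 SE, adjusted p = 0.00135). The rise of these genes was several-fold in each replicate set. ECSCR, an endothelial cell surface regulator of chemotaxis, was at 15.1, 17.3 and 15.3 CPM against 5.13, 3.41 and 2.13 CPM (log2 fold change 2.17 ± 0.27 SE, adjusted p = 0.000206). CALCRL, the receptor that forms calcitonin gene-related peptide and adrenomedullin receptors with RAMP proteins, was at 8.99, 14.3 and 12.5 CPM against 1.52, 3.91 and 3.51 CPM (log2 fold change 2.03 ± 0.38 SE, adjusted p = 0.00489). The groups did not overlap for any of these 5 genes.

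Neural and developmental genes completed the raised set. GAP43, a growth cone protein, was at 171, 181 and 143 CPM with DAF-mut9 and 36.5, 28.1 and 20.2 CPM in iEF (log2 fold change 2.57 ± 0.26 SE, adjusted p = 1.97e-05). PCSK1, a prohormone convertase, was at 114, 109 and 69.3 CPM against 31.1, 15.1 and 24.7 CPM (log2 fold change 2.08 ± 0.27 SE, adjusted p = 0.000284). HOXB8, a homeobox transcription factor, was at 15.5, 16.9 and 14.8 CPM against 4.76, 3.88 and 2.54 CPM (log2 fold change 2.07 ± 0.28 SE, adjusted p = 0.000339). Each of these had its lowest DAF-mut9 library above its highest iEF library. FRG2 of the subtelomere of chromosome 4 was at 13.1, 13.9 and 15.6 CPM against 3.03, 1.06 and 2.16 CPM (log2 fold change 2.70 ± 0.38 SE, adjusted p = 0.000475), but near-identical copies exist elsewhere in the genome and its counts are uncertain. SERTM1 was at 55.2, 68.4 and 30.8 CPM against 13.7, 19.2 and 8.7 CPM (log2 fold change 1.89 ± 0.21 SE, adjusted p = 5.01e-05). All 12 raised genes stayed called whichever of the 6 libraries was left out.

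**Figure D2:**
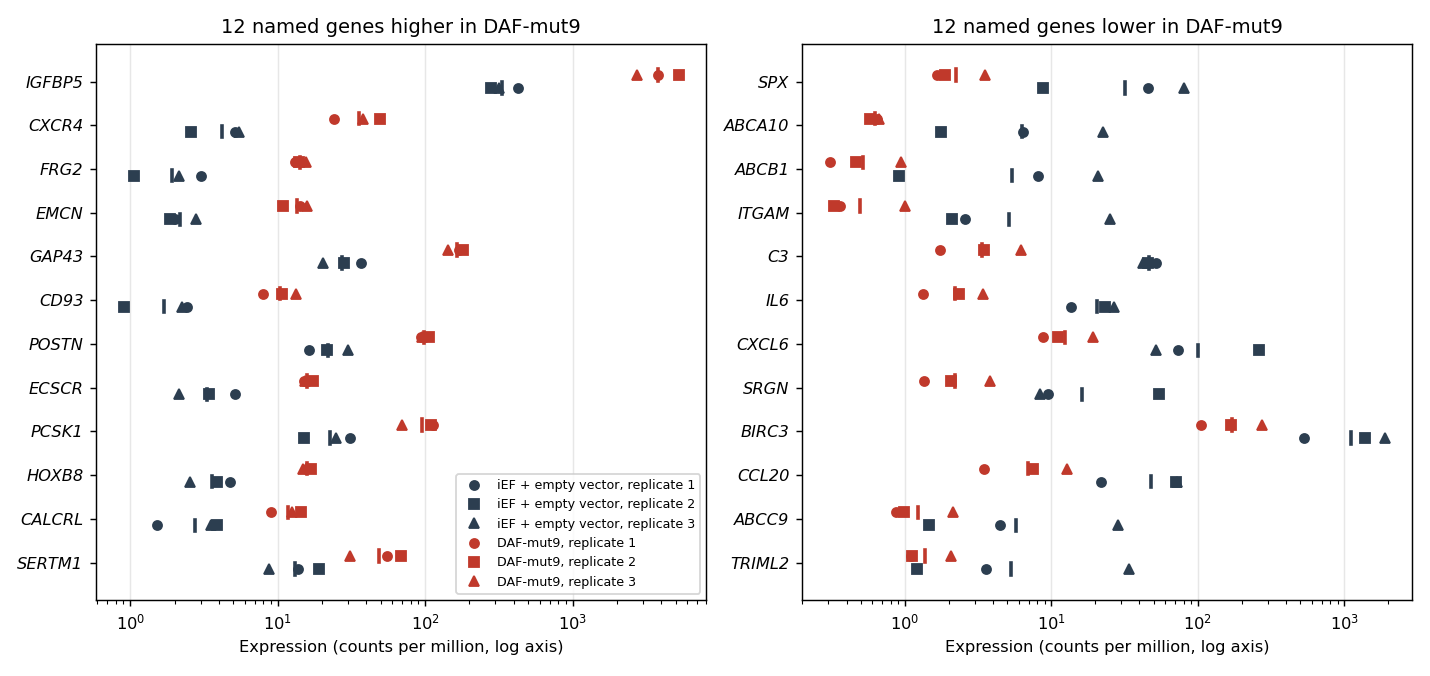
Expression in CPM (log axis) of the 12 named raised genes (left) and the 12 named lowered genes (right) in each DAF-mut9 (red) and iEF (dark) library, with replicates 1 to 3 as circles, squares and triangles and the geometric mean of each group as a bar. The groups are separate for all 12 raised genes and for 9 of the 12 lowered genes, and iEF replicate 3 lies far to the right for ITGAM, ABCC9 and TRIML2.

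Inflammatory mediators were among the 12 lowered genes, after SPX, ABCA10, ABCB1 and ITGAM by size of change. IL6, the cytokine interleukin 6 (ENSG00000136244, chromosome 7, 22765503 to 22771621), was at 1.34, 2.33 and 3.43 CPM in DAF-mut9 replicates 1 to 3 and at 13.6, 23.4 and 26.6 CPM in iEF (log2 fold change -3.16 ± 0.44 SE, adjusted p = 0.000404). C3, the central component of complement, was at 1.75, 3.48 and 6.17 CPM against 52.2, 46 and 42.6 CPM (log2 fold change -3.65 ± 0.63 SE, adjusted p = 0.00241). These genes stayed called whichever library was left out, and C3 had the tightest iEF levels among the 12 lowered genes. With 1 library left out, the log2 fold change shifted for C3 (-4.35 without DAF-mut9 replicate 3). IL6 and C3 share 428 and 1357 exon bases with other annotated genes, IL6 with an antisense gene, and the strand setting of the counting is not given in the sources used here, so such counts are uncertain.

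The chemokine and survival genes were lowered with more spread between libraries. BIRC3, an inhibitor of apoptosis and ubiquitin ligase of the NF-κB pathway, was at 106, 169 and 276 CPM against 530, 1390 and 1890 CPM (log2 fold change -2.77 ± 0.58 SE, adjusted p = 0.0101). CXCL6, a neutrophil chemokine, was at 8.81, 11.1 and 19.4 CPM against 73.6, 261 and 52 CPM (log2 fold change -2.99 ± 0.67 SE, adjusted p = 0.0159). CCL20, the ligand of CCR6, was at 3.49, 7.49 and 12.9 CPM against 21.8, 71.1 and 72 CPM (log2 fold change -2.73 ± 0.60 SE, adjusted p = 0.0151). In all of them replicate 1 was the lowest and replicate 3 the highest DAF-mut9 library, and the groups did not overlap. SRGN, the proteoglycan serglycin, was at 1.36, 2.06 and 3.82 CPM against 9.57, 54 and 8.38 CPM (log2 fold change -2.95 ± 0.59 SE, adjusted p = 0.00775), with replicate 2 far above the other iEF libraries. Leaving out 1 library ended the call of BIRC3 (without DAF-mut9 replicates 1 or 2 or iEF replicate 3, adjusted p up to 0.0929), CXCL6 (without DAF-mut9 replicates 1 or 2 or iEF replicate 2, adjusted p up to 0.119), CCL20 (without DAF-mut9 replicates 1 or 2 or iEF replicate 3, adjusted p up to 0.114) and SRGN (without DAF-mut9 replicates 1 or 2, adjusted p up to 0.0819). Single libraries moved the log2 fold change of CXCL6 (-3.73 without DAF-mut9 replicate 3 and -2.34 without iEF replicate 2), SRGN (-3.72 without DAF-mut9 replicate 3 and -2.04 without iEF replicate 2) and CCL20 (-3.48 without DAF-mut9 replicate 3).

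Spexin, transporter and surface genes were lowered as well, each with iEF replicate 3 as its highest library. SPX, the neuropeptide spexin, was at 1.67, 1.87 and 3.52 CPM against 45.9, 8.79 and 81.1 CPM (log2 fold change -4.17 ± 0.74 SE, adjusted p = 0.0033). ABCA10, a lipid transporter family gene that shares 318 exon bases with ABCA5, was at 0.642, 0.576 and 0.67 CPM against 6.42, 1.78 and 22.4 CPM (log2 fold change -3.86 ± 0.58 SE, adjusted p = 0.000844). ITGAM, the integrin αM chain that myeloid cells carry, was at 0.36, 0.329 and 1 CPM against 2.57, 2.1 and 25 CPM (log2 fold change -3.82 ± 0.64 SE, adjusted p = 0.0018). The iEF values of these genes spread widely but lay above every DAF-mut9 value, and the calls held in each leave-out fit. The log2 fold change moved most with 1 library left out for SPX (-2.97 without iEF replicate 3), ABCA10 (-4.46 without iEF replicate 2 and -2.59 without iEF replicate 3) and ITGAM (-2.23 without iEF replicate 3).

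ABCB1, the drug efflux pump P-glycoprotein, was at 0.308, 0.466 and 0.949 CPM against 8.17, 0.907 and 20.7 CPM (log2 fold change -3.85 ± 0.72 SE, adjusted p = 0.0051). ABCC9, the sulfonylurea receptor subunit of ATP-sensitive potassium channels, was at 0.873, 0.988 and 2.12 CPM against 4.48, 1.47 and 28.6 CPM (log2 fold change -2.72 ± 0.64 SE, adjusted p = 0.0218). TRIML2 was at 1.1, 1.12 and 2.07 CPM against 3.57, 1.22 and 33.7 CPM (log2 fold change -2.70 ± 0.64 SE, adjusted p = 0.022). The groups of these genes overlapped, since iEF replicate 2 lay inside the DAF-mut9 range. With 1 library left out, the log2 fold change shifted for ABCB1 (-4.50 without iEF replicate 2 and -2.41 without iEF replicate 3), ABCC9 (-3.31 without iEF replicate 2 and -1.27 without iEF replicate 3) and TRIML2 (-3.35 without iEF replicate 2 and -0.79 without iEF replicate 3). Some calls depended on 1 library, namely ABCB1 (without DAF-mut9 replicate 1 or iEF replicate 3, adjusted p up to 0.0712), ABCC9 (without DAF-mut9 replicates 1, 2 or 3 or iEF replicate 3, adjusted p up to 0.376) and TRIML2 (without DAF-mut9 replicates 1, 2 or 3 or iEF replicate 3, adjusted p up to 0.447).

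The bases just upstream of the start sites of the lowered cytokine and chemokine genes were read for the NF-κB motif, taken here as GGG, any 2 bases and TTTCC on either strand, in the 250 bases before each RefSeq start (GRCh38.p14). Of the genes called lower in the cytokine and chemokine lists described next, 7 of 9 and 3 of 3 were in the promoter table, and the 6 with a match are shown, since they share this motif, with 10 bases on each side and the motif in capitals. Genes on the reverse strand are written in their own 5′ to 3′ direction. In CCL20 and BIRC3 the motif lies on the opposite strand and so reads as its reverse complement.
IL6, chr7:22727117-22727146, forward strand: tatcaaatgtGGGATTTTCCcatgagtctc
CXCL6, chr4:73836578-73836607, forward strand: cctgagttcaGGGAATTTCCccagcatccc
CXCL3, chr4:74038749-74038778, reverse strand: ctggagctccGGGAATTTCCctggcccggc
CCL20, chr2:227813753-227813782, forward strand: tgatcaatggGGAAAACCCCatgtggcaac
BIRC3, chr11:102317275-102317304, forward strand: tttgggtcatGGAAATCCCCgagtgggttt
NFKB2, chr10:102394490-102394519, forward strand: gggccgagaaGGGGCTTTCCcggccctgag

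The motif began 73, 90, 79, 79, 78 and 199 bases before the start of IL6, CXCL6, CXCL3, CCL20, NFKB2 and BIRC3. It was present in 374 of 15069 tested genes with a promoter entry (2.48%). The share was 26 of 436 (5.96%) among genes called lower and 5 of 270 (1.85%) among genes called higher. Over the whole lists it was 8 of 20 cytokine and regulator genes and 6 of 15 chemokine genes, whether or not they changed. The ETS motif CCGGAAGT stood in 6.29% of all these promoters, in 4.13% of those called lower and in 1 of 270 (0.37%) of those called higher. The paired motif GGAAGGAA stood in 4.09% of all, 4.59% of those called lower and 8.15% of those called higher. None of the 10 raised named genes with an entry held CCGGAAGT in this window, and 1 held GGAAGGAA. A match describes letters in a window and says nothing of binding in these cells.

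IL6, IL11, BIRC3 and other genes of the NF-κB-linked cytokine list fell. This list holds cytokines, growth factors and regulators that NF-κB controls. Of its 24 tested members, 9 fell and 1 rose (41.7% called, against 3.40% of all genes), 23 had a negative log2 fold change and the median was -1.40, against -0.02 over all genes. IL11, a cytokine of the interleukin 6 family, fell from 108, 113 and 205 CPM to 41.3, 37 and 43.5 CPM (log2 fold change -1.79 ± 0.28 SE, adjusted p = 0.00133). TNFAIP6, a secreted hyaluronan-binding protein, went the other way, from 26.9, 49.6 and 36.3 CPM to 94.7, 101 and 90.2 CPM (log2 fold change 1.36 ± 0.18 SE, adjusted p = 0.000376). IL6, IL11 and TNFAIP6 were called in every leave-out fit. The other 6 lowered members, named after their values were seen, were CSF3 (-2.46, adjusted p = 0.0208), PTGS2 (-1.70, adjusted p = 0.0228), TNFAIP2 (-1.98, adjusted p = 0.0236), RELB (-1.18, adjusted p = 0.0252), NFKB2 (-1.28, adjusted p = 0.0304) and CSF2 (-2.68, adjusted p = 0.0306). CSF3 was at 0, 0.22 and 0.223 CPM against 0.49, 0.72 and 1.22 CPM, with at most 8 counts in a DAF-mut9 library. PTGS2 makes prostaglandins, and RELB and NFKB2 encode the subunits of non-canonical NF-κB. Without iEF replicate 3, 3 members of the list were called. A call was lost with 1 library left out for CSF3 (without DAF-mut9 replicates 1 or 3 or iEF replicate 3, adjusted p up to 0.126), PTGS2 (without DAF-mut9 replicates 1, 2 or 3 or iEF replicate 3, adjusted p up to 0.193), TNFAIP2 (without DAF-mut9 replicates 1 or 2 or iEF replicates 2 or 3, adjusted p up to 0.153), RELB (without DAF-mut9 replicates 1, 2 or 3 or iEF replicate 3, adjusted p up to 0.235), NFKB2 (without DAF-mut9 replicates 1 or 2 or iEF replicates 2 or 3, adjusted p up to 0.26) and CSF2 (without DAF-mut9 replicates 1 or 2 or iEF replicates 2 or 3, adjusted p up to 0.184). Single libraries moved the log2 fold change of CSF3 (-3.07 without DAF-mut9 replicate 2), TNFAIP2 (-1.31 without iEF replicate 2) and CSF2 (-3.52 without DAF-mut9 replicate 3).

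Chemokines moved in both directions. Of 18 tested, 3 fell and 1 rose (22.2%, against 3.40% of all genes), with a median log2 fold change of -0.25. CXCL3, a CXCR2 ligand, was at 3.13, 3.92 and 9.99 CPM against 17.9, 33.9 and 43.7 CPM (log2 fold change -2.48 ± 0.54 SE, adjusted p = 0.0137), beside CXCL6 and CCL20 above. CXCL9, a CXCR3 ligand that interferon-γ induces, rose from 0.14, 1.56 and 0.73 CPM to 1.98, 7.76 and 5.5 CPM (log2 fold change 2.76 ± 0.52 SE, adjusted p = 0.00543). Leaving out 1 library ended the call of CXCL3 (without DAF-mut9 replicates 1 or 2 or iEF replicate 3, adjusted p up to 0.113). The log2 fold change moved most with 1 library left out for CXCL3 (-3.28 without DAF-mut9 replicate 3). The interferon-stimulated list held no called gene among 28 tested, with a median of -0.02. In it 1 gene had an unadjusted p below 0.05, against 4544 of all 30549 genes tested. IFIT3, an interferon-induced antiviral gene of this list with a high level, had a log2 fold change of 0.21.

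ETS-family genes, the relatives of FLI1, were lower in 5 of 22 cases, while FLI1 itself was higher (27.3% called, against 3.40% of all genes). EHF, an epithelial-type ETS factor, was at 1.82, 2.22 and 4.13 CPM against 15.4, 9.67 and 18.2 CPM (log2 fold change -2.46 ± 0.44 SE, adjusted p = 0.00308). ETS2 was at 20.5, 24.3 and 31.3 CPM against 49.6, 32.4 and 118 CPM (log2 fold change -1.34 ± 0.26 SE, adjusted p = 0.00639). ELF3 was at 0.128, 0.137 and 0.251 CPM against 0.77, 10.1 and 0.648 CPM (log2 fold change -3.84 ± 0.81 SE, adjusted p = 0.0108), with iEF replicate 2 far above the rest. ERG, the closest relative of FLI1, was near 1 CPM, at 0.616, 0.549 and 0.279 CPM against 1.54, 1.16 and 2.05 CPM (log2 fold change -1.73 ± 0.41 SE, adjusted p = 0.0229). ETV4, of the PEA3 group, fell by less (log2 fold change -0.79 ± 0.21 SE, adjusted p = 0.0472). Some calls depended on 1 library, namely ETS2 (without iEF replicate 3, adjusted p up to 0.0638), ELF3 (without DAF-mut9 replicates 1 or 2 or iEF replicate 2, adjusted p up to 0.14), ERG (without DAF-mut9 replicates 1, 2 or 3 or iEF replicate 3, adjusted p up to 0.155) and ETV4 (without DAF-mut9 replicates 1, 2 or 3 or iEF replicate 1, adjusted p up to 0.249). With 1 library left out, the log2 fold change shifted for ELF3 (-3.00 without DAF-mut9 replicate 2, -4.60 without DAF-mut9 replicate 3, -4.46 without iEF replicate 1, -2.06 without iEF replicate 2 and -4.50 without iEF replicate 3). Of 19 endothelial-type ETS targets, EMCN and KDR, the VEGF receptor 2, rose and ERG fell (15.8%), with a median log2 fold change of 0.02, 10 members above 0 and 9 below. The endothelial genes ROBO4 (-1.75, adjusted p = 0.0667), SOX17 (-1.04, adjusted p = 0.232), VWF (-0.88, adjusted p = 0.39) and TIE1 (0.24, adjusted p = 0.831), named after their values were seen, were not called. KDR was at 39.1, 32.5 and 31.6 CPM against 24.6, 5.41 and 16.5 CPM (log2 fold change 1.29 ± 0.31 SE, adjusted p = 0.0266). A call was lost with 1 library left out for KDR (without DAF-mut9 replicates 1 or 2 or iEF replicates 2 or 3, adjusted p up to 0.138). In bulk RNA a change in the number of cells of a type cannot be told apart from a change in RNA per cell, and the endothelial markers CDH5 and VWF stayed below 1 CPM in all 6 libraries. The part of other cells in these levels was not tested.

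More adhesion and contractile genes rose than fell. Of 27 integrin and adhesion genes, 5 rose and 1 fell (22.2%). ITGB3, the integrin β3 chain, was at 17.9, 19.4 and 18.5 CPM against 6.37, 4.88 and 4.97 CPM (log2 fold change 1.77 ± 0.25 SE, adjusted p = 0.000475). ITGB8 (log2 fold change 1.08 ± 0.27 SE, adjusted p = 0.0303) and the focal adhesion protein VCL (log2 fold change 0.49 ± 0.11 SE, adjusted p = 0.0185) rose, and the adhesion molecule L1CAM fell (log2 fold change -0.93 ± 0.18 SE, adjusted p = 0.00666). ITGB3 was called in every leave-out fit. Of 21 contractile genes, TAGLN (log2 fold change 1.25 ± 0.24 SE, adjusted p = 0.00619), TPM2 (log2 fold change 0.60 ± 0.12 SE, adjusted p = 0.00641) and VCL rose and none fell. The list's median was 0.28, and 14.3% of it was called, against 3.40% of all genes. Leaving out 1 library ended the call of ITGB8 (without DAF-mut9 replicates 1, 2 or 3 or iEF replicates 2 or 3, adjusted p up to 0.11), VCL (without DAF-mut9 replicates 1, 2 or 3 or iEF replicates 1 or 3, adjusted p up to 0.0936), L1CAM (without DAF-mut9 replicates 1 or 2, adjusted p up to 0.0548), TAGLN (without DAF-mut9 replicate 1, adjusted p up to 0.0502) and TPM2 (without iEF replicate 3, adjusted p up to 0.0589).

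Matrix genes moved in both directions. The called shares were 18.8% for matrix and remodelling genes, 13.6% for collagens and 23.5% for the complement list, against 3.40% of all genes. Of 32 matrix and remodelling genes, 3 rose and 3 fell (18.8%), with POSTN and SPARC among the first and LUM and MMP13 among the second. SPARC, a collagen-binding matricellular protein, was at 994, 1250 and 850 CPM against 590, 799 and 512 CPM (log2 fold change 0.71 ± 0.14 SE, adjusted p = 0.00641). LUM, the proteoglycan lumican, was at 0.103, 0.247 and 0.195 CPM against 0.98, 3.32 and 1.16 CPM (log2 fold change -3.20 ± 0.46 SE, adjusted p = 0.000516), and MMP13 is a collagenase (log2 fold change -1.51 ± 0.35 SE, adjusted p = 0.0191). Of 22 collagens, COL13A1 (log2 fold change 0.86 ± 0.19 SE, adjusted p = 0.0133) and COL21A1 (log2 fold change 1.09 ± 0.29 SE, adjusted p = 0.041) rose and COL8A1 fell (log2 fold change -0.94 ± 0.16 SE, adjusted p = 0.0018). The complement list of 17 tested genes was split as well. CFI (log2 fold change 1.46 ± 0.28 SE, adjusted p = 0.00566) and CD59 (log2 fold change 0.50 ± 0.14 SE, adjusted p = 0.049), both complement inhibitors, were higher. C3 and C1QTNF1 (log2 fold change -1.88 ± 0.37 SE, adjusted p = 0.00666) were lower. C1QTNF1 encodes a C1q-related protein that is not itself a complement component. Some calls depended on 1 library, namely SPARC (without DAF-mut9 replicate 2 or iEF replicate 3, adjusted p up to 0.0572), MMP13 (without DAF-mut9 replicates 1, 2 or 3 or iEF replicates 2 or 3, adjusted p up to 0.122), COL13A1 (without DAF-mut9 replicates 1, 2 or 3 or iEF replicate 3, adjusted p up to 0.09), CD59 (without DAF-mut9 replicates 1 or 2 or iEF replicates 1, 2 or 3, adjusted p up to 0.335) and C1QTNF1 (without DAF-mut9 replicates 1 or 2, adjusted p up to 0.0641). The call of COL21A1 was lost whichever of the 6 libraries was left out (adjusted p up to 0.168). Single libraries moved the log2 fold change of CFI (2.11 without iEF replicate 2).

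Guidance and neural genes held some of the lowest adjusted p-values. Of 32 axon guidance genes, 3 rose and 3 fell (18.8%, against 3.40% of all genes). SEMA3D, a secreted semaphorin, was at 42.8, 43.6 and 35.2 CPM against 11.3, 11.6 and 11.5 CPM (log2 fold change 1.81 ± 0.17 SE, adjusted p = 9.78e-06). ROBO2, a SLIT receptor, was at 38.2, 36.8 and 30.9 CPM against 12.3, 6.98 and 10.8 CPM (log2 fold change 1.81 ± 0.20 SE, adjusted p = 4.73e-05), and the netrin receptor DCC rose as well (log2 fold change 0.81 ± 0.13 SE, adjusted p = 0.00119). NRP2, a coreceptor for class 3 semaphorins and VEGF, fell from 32, 105 and 31.6 CPM to 6.57, 9.33 and 14.4 CPM (log2 fold change -2.32 ± 0.35 SE, adjusted p = 0.000878). These 4 genes were called in every leave-out fit, and none of their groups overlapped. Of 24 neural and neuroendocrine genes, GAP43 and PCSK1 rose and 4 fell (25%). CHGB, the granule protein chromogranin B, was at 3.88, 4.23 and 4.66 CPM against 23.2, 19.3 and 33.9 CPM (log2 fold change -2.59 ± 0.24 SE, adjusted p = 8.7e-06) and SNAP25, of the synaptic fusion machinery, fell too (log2 fold change -1.38 ± 0.27 SE, adjusted p = 0.00666). A call was lost with 1 library left out for SNAP25 (without DAF-mut9 replicate 2 or iEF replicate 3, adjusted p up to 0.0806).

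TGF-β, WNT and IGF genes were called at 15.4%, 14.3% and 18.8%, against 3.40% of all genes. Among 26 TGF-β genes, the activin subunit INHBA (log2 fold change -1.78 ± 0.26 SE, adjusted p = 0.000662), the activin antagonist FST (log2 fold change -1.80 ± 0.32 SE, adjusted p = 0.00308), LTBP1 (log2 fold change -0.80 ± 0.18 SE, adjusted p = 0.0159) and the coreceptor TGFBR3 (log2 fold change -0.92 ± 0.24 SE, adjusted p = 0.0353) fell and none rose. INHBA was at 63.4, 86.1 and 87.7 CPM against 172, 334 and 318 CPM. Among 28 WNT genes, the receptor ROR1 (log2 fold change 1.19 ± 0.13 SE, adjusted p = 5.47e-05), the antagonist DKK1 (log2 fold change 1.20 ± 0.27 SE, adjusted p = 0.0151) and FZD1 (log2 fold change 0.64 ± 0.14 SE, adjusted p = 0.0175) rose, and NOTUM, which inactivates WNT ligands, fell (log2 fold change -4.14 ± 0.61 SE, adjusted p = 0.000662) from 0.7, 2.78 and 0.892 CPM to 0.0514, 0.0549 and 0.112 CPM. In the IGF list of 16 genes IGFBP5 rose, while PAPPA2, a protease of IGF-binding proteins (log2 fold change -4.06 ± 0.86 SE, adjusted p = 0.0111), and IGF2 (log2 fold change -2.10 ± 0.55 SE, adjusted p = 0.036) fell at levels near or under 1 CPM with DAF-mut9. PAPPA2 was at 0.18, 0.713 and 0.698 CPM with DAF-mut9 and 12, 0.501 and 21.9 CPM in iEF, where replicate 2 lay inside the DAF-mut9 range. Leaving out 1 library ended the call of LTBP1 (without DAF-mut9 replicates 1, 2 or 3 or iEF replicate 3, adjusted p up to 0.107), TGFBR3 (without DAF-mut9 replicates 1 or 2 or iEF replicates 1 or 2, adjusted p up to 0.231), DKK1 (without DAF-mut9 replicate 2 or iEF replicate 1, adjusted p up to 0.115), FZD1 (without DAF-mut9 replicates 1, 2 or 3 or iEF replicate 3, adjusted p up to 0.0871), PAPPA2 (without DAF-mut9 replicates 1 or 3 or iEF replicate 3, adjusted p up to 0.138) and IGF2 (without DAF-mut9 replicates 1, 2 or 3 or iEF replicates 1 or 3, adjusted p up to 0.199). The log2 fold change moved most with 1 library left out for NOTUM (-4.78 without DAF-mut9 replicate 3 and -3.37 without iEF replicate 2) and PAPPA2 (-3.32 without DAF-mut9 replicate 1, -4.81 without DAF-mut9 replicate 2, -4.88 without iEF replicate 2 and -2.62 without iEF replicate 3).

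MAPK feedback, glucocorticoid, potassium channel and amino acid carrier genes were called at 16.7%, 13.6%, 10% and 8.33%, against 3.40% of all genes. Among 18 MAPK feedback genes, the phosphatase DUSP4 rose (log2 fold change 0.83 ± 0.16 SE, adjusted p = 0.00666) and IL11 and ETV4 fell. Of 22 glucocorticoid targets, FAM107A (log2 fold change 2.72 ± 0.57 SE, adjusted p = 0.0101) and ZBTB16 (log2 fold change 0.95 ± 0.21 SE, adjusted p = 0.0159) rose. KLF15 fell (log2 fold change -2.26 ± 0.37 SE, adjusted p = 0.00164). FAM107A was at 0.36, 0.137 and 0.614 CPM against 0.0934, 0.0313 and 0.027 CPM, with at most 4 counts in an iEF library. Of 30 potassium channel genes KCNE4 rose (log2 fold change 0.92 ± 0.18 SE, adjusted p = 0.00648). KCNJ15 (log2 fold change -2.73 ± 0.44 SE, adjusted p = 0.00198) and KCNMA1 (log2 fold change -0.85 ± 0.23 SE, adjusted p = 0.0411) fell. KCNJ15 was at 0.308, 0.247 and 0.335 CPM against 1.91, 2.06 and 1.97 CPM. The arginine transporter SLC7A2 (log2 fold change -2.00 ± 0.26 SE, adjusted p = 0.00026) was the called gene among 12 amino acid carriers. Some calls depended on 1 library, namely FAM107A (without DAF-mut9 replicate 3 or iEF replicate 3, adjusted p up to 0.0814), ZBTB16 (without DAF-mut9 replicates 1 or 2 or iEF replicate 3, adjusted p up to 0.112), KCNE4 (without iEF replicate 3, adjusted p up to 0.0637) and KCNMA1 (without DAF-mut9 replicates 1, 2 or 3 or iEF replicates 2 or 3, adjusted p up to 0.221). With 1 library left out, the log2 fold change shifted for KLF15 (-1.53 without iEF replicate 3) and FAM107A (2.08 without DAF-mut9 replicate 3 and 3.48 without iEF replicate 1).

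Transcription factor and growth lists gave 1 or 2 calls each, where 3.40% of all genes were called. The SOX list had 11.8% of its tested members called. The other lists of this paragraph had 3.33% to 5%, near the share of all genes. HOXB8 was the called gene of 27 HOX genes tested (3.7%), and SOX6 (log2 fold change 0.99 ± 0.15 SE, adjusted p = 0.000777) and SOX2 (log2 fold change 0.70 ± 0.17 SE, adjusted p = 0.0264) were those of 17 SOX genes. Of 25 mesenchymal factors RUNX1 fell (log2 fold change -1.04 ± 0.24 SE, adjusted p = 0.0207). Of 20 immediate early genes MYC fell (log2 fold change -0.65 ± 0.18 SE, adjusted p = 0.0493), which also was the call among 20 ribosome biogenesis genes. In the YAP/TEAD list of 20 genes GADD45A fell (log2 fold change -1.52 ± 0.38 SE, adjusted p = 0.0306), a gene that is also a p53 target. Single calls were DDIT3 in the ATF4 and serine list of 20 (log2 fold change -1.54 ± 0.39 SE, adjusted p = 0.0308), SQSTM1 in 20 lysosome and autophagy genes (log2 fold change -0.87 ± 0.23 SE, adjusted p = 0.0374), HK1 in 23 glycolysis and hypoxia genes (log2 fold change 0.42 ± 0.11 SE, adjusted p = 0.0467) and CHD3 in 30 chromatin genes (log2 fold change 0.48 ± 0.12 SE, adjusted p = 0.0333). In the ATF4 list all 20 members had a negative log2 fold change, with a median of -0.45. A call was lost with 1 library left out for SOX2 (without DAF-mut9 replicates 1, 2 or 3 or iEF replicates 1 or 3, adjusted p up to 0.118), RUNX1 (without DAF-mut9 replicates 1 or 3 or iEF replicate 3, adjusted p up to 0.188), MYC (without DAF-mut9 replicates 1, 2 or 3 or iEF replicates 2 or 3, adjusted p up to 0.436), GADD45A (without DAF-mut9 replicates 1, 2 or 3 or iEF replicate 3, adjusted p up to 0.39), DDIT3 (without DAF-mut9 replicates 1, 2 or 3 or iEF replicate 3, adjusted p up to 0.399), SQSTM1 (without DAF-mut9 replicates 1, 2 or 3 or iEF replicate 3, adjusted p up to 0.418) and CHD3 (without DAF-mut9 replicates 1 or 3 or iEF replicates 2 or 3, adjusted p up to 0.249). The call of HK1 was lost whichever of the 6 libraries was left out (adjusted p up to 0.191). Single libraries moved the log2 fold change of GADD45A (-0.76 without iEF replicate 3) and DDIT3 (-0.68 without iEF replicate 3).

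No member was called by edgeR among 31 replication and mitosis genes, 18 G1 genes, 18 p53 targets or 25 cholesterol and fatty acid genes. An unadjusted p below 0.05 was seen for 7, 1, 2 and 7 of them, against 4544 of all 30549 genes tested. The medians of these lists were 0.12, 0.01, -0.15 and -0.14. CENPF and CCNB1, of the mitosis list, had log2 fold changes of 0.40 and 0.12. CCND1, the cyclin of the G1 list with the highest level, had 0.06. The p53 list does not hold GADD45A, a p53 target that was called lower in the YAP/TEAD list above.

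**Figure D3:**
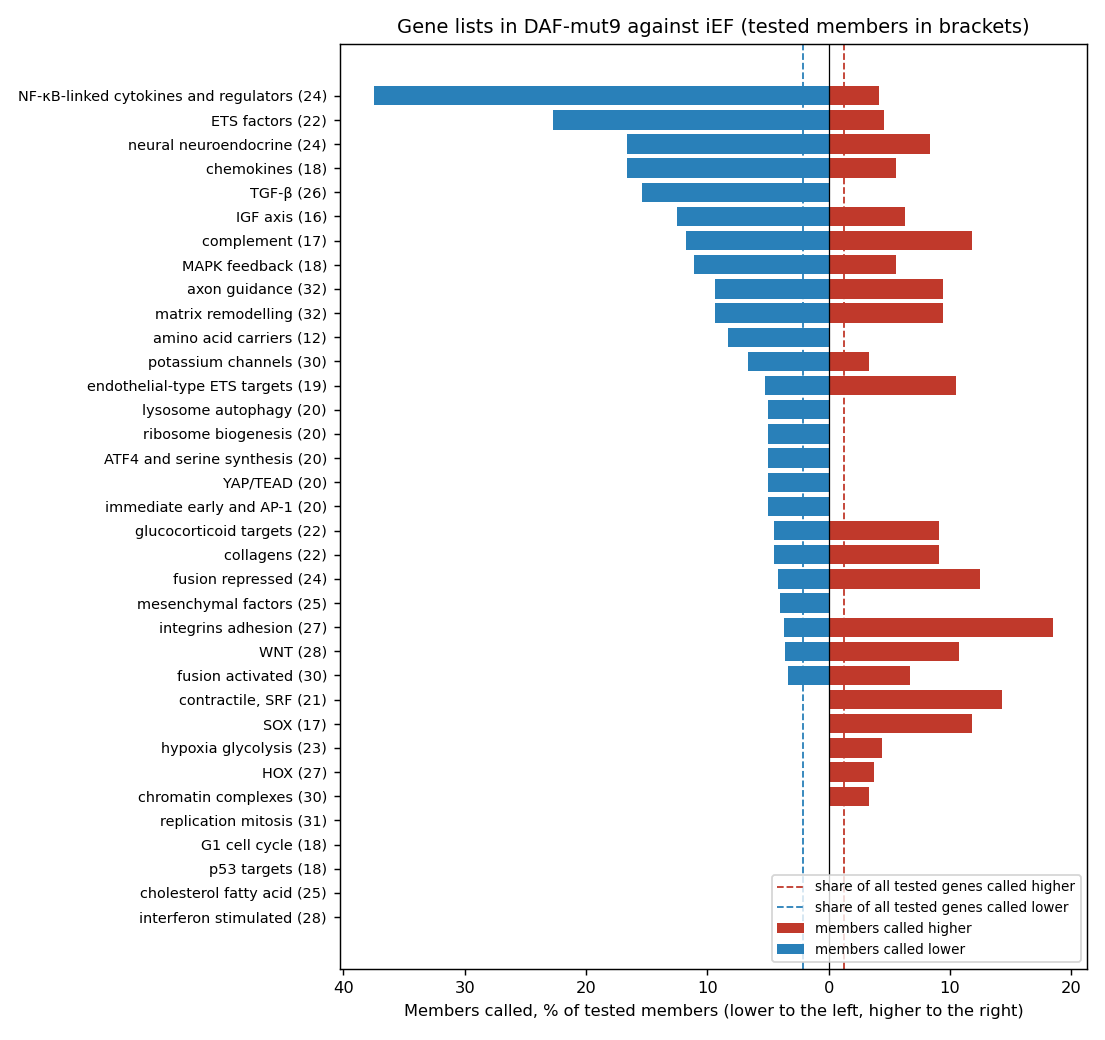
Share of the tested members of each gene list shown that were called higher (red, to the right) or lower (blue, to the left) in DAF-mut9 than in iEF, in percent, with the number of tested members in brackets. Dashed lines mark the shares over all tested genes, 1.26% higher and 2.14% lower, and the NF-κB-linked list reaches farthest to the left, with 9 of 24 members lower.

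Of the genes that the fusion is known to activate, 3 of 30 differed between DAF-mut9 and iEF (10%, against 3.40% of all genes). Of 30 fusion-activated genes, SOX2 (0.70) and CAV1 (0.51) rose and NR0B1 fell (log2 fold change -1.05 ± 0.27 SE, adjusted p = 0.0374), and the median log2 fold change was 0.07. NR0B1, an orphan nuclear receptor gene near a GGAA microsatellite, was at 5.5, 7.11 and 10.4 CPM with DAF-mut9 and 10.9, 23.2 and 14.9 CPM in iEF. In iLuc against iEF, a comparison that shares the iEF libraries, 29 of the 30 were higher and the median was 2.90 (41.1% of all genes were called there). CAV1, the caveolae protein caveolin 1, was at 799, 858 and 838 CPM against 626, 570 and 560 CPM, and at 2020, 2210 and 1900 CPM in iLuc. Leaving out 1 library ended the call of SOX2 (without DAF-mut9 replicates 1, 2 or 3 or iEF replicates 1 or 3, adjusted p up to 0.118), CAV1 (without DAF-mut9 replicates 1, 2 or 3 or iEF replicates 2 or 3, adjusted p up to 0.155) and NR0B1 (without DAF-mut9 replicates 1 or 2 or iEF replicates 2 or 3, adjusted p up to 0.222). Without iEF replicate 3 no member of the list was called.

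Fusion-repressed genes gave 3 rises and 1 fall among 24 tested (16.7%, against 3.40% of all genes), with a median of 0.01. In iLuc against iEF, where 41.1% of all genes were called, 22 of the 24 were lower (median -3.93). IGFBP5 and the matrix protein THBS1 (log2 fold change 0.77 ± 0.13 SE, adjusted p = 0.00229) rose with DAF-mut9, as did DKK1, and LUM fell. The iLuc differences of these 4 genes were -3.97, -6.40, -3.89 and -3.67 on the log2 scale. The raised genes thus moved away from their level in iLuc cells, at 19.9, 24.2 and 20.6 CPM for IGFBP5, and LUM moved toward it. THBS1 was at 132, 176 and 140 CPM with DAF-mut9, 79.3, 95 and 88.6 CPM in iEF and 1.18, 1.04 and 0.877 CPM in iLuc.

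**Figure D4:**
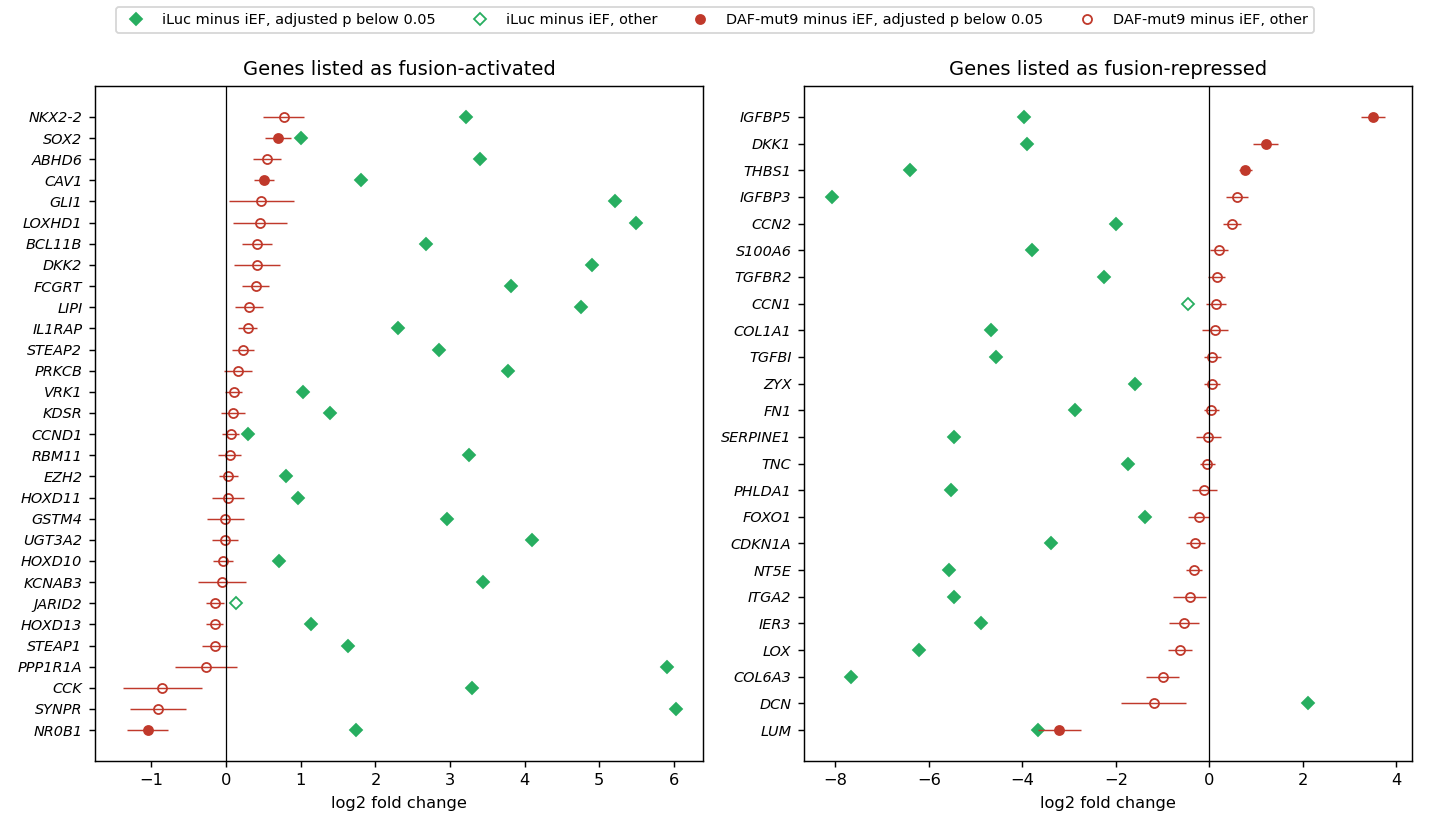
Log2 fold change of each listed fusion-activated (left) and fusion-repressed (right) gene for DAF-mut9 minus iEF (red circles, bars are the SE) and iLuc minus iEF (green diamonds), filled where adjusted p is below 0.05. The red circles lie near 0 apart from IGFBP5, DKK1, THBS1, LUM and a few others, while most green diamonds lie well above 0 on the left and well below 0 on the right, and both comparisons use the same iEF libraries.

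DAF-mut9 and Δ22, which keeps the ETS domain and lacks nearly all of EWS, were compared directly. No gene differed by edgeR at an adjusted p below 0.05 (0% called), with 671 at an unadjusted p below 0.05, and by DESeq2 the counts were 0 and 429. This does not show that the constructs act alike. Over 10723 genes with a mean of at least 5 CPM in the DAF-mut9 and iEF libraries, the median SE of the log2 difference was 0.138. For IGFBP5 the Δ22 libraries were at 2350, 2930 and 2570 CPM, and the log2 difference DAF-mut9 minus Δ22 was 0.55 (95% interval 0.10 to 1.00 from 1.96 SE, unadjusted for the number of genes, adjusted p = 1). For C3 it was -0.70 (-1.89 to 0.49) and for HOXB8 0.03 (-0.48 to 0.54). Among the 24 genes named by size, the difference reached at most 0.7 in either direction.

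Against iEF, Δ22 changed 817 genes (2.67%), in a comparison that shares the iEF libraries with that of DAF-mut9. Side by side, the log2 fold changes of DAF-mut9 and Δ22 were 2.93 and 2.79 for CXCR4, 2.63 and 2.48 for EMCN, -3.16 and -3.01 for IL6, and -2.77 and -2.60 for BIRC3. FLI1 was at 41.3, 45.2 and 62 CPM in the Δ22 libraries.

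DAF-mut9 and mut9 differ in the repeat tyrosines, and 3003 genes differed between them (9.83%), with 1572 higher and 1431 lower with DAF-mut9. In the fusion-activated list, 24 of 30 genes were lower with DAF-mut9 than with mut9 and none higher, with a median log2 difference of -1.49. The members with the lowest adjusted p, named after their values were seen, were the kinase gene PRKCB (-2.96, adjusted p = 6.88e-09), UGT3A2 (-2.62, 1.07e-08) and the neonatal Fc receptor gene FCGRT (-2.60, 1.24e-08). PRKCB was at 36.1, 40.8 and 41.9 CPM with DAF-mut9, 301, 412 and 219 CPM with mut9 and 42.5, 28.3 and 35.2 CPM in iEF. The DAF-mut9 and iEF levels of PRKCB overlapped and both lay below mut9.

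Of the fusion-repressed genes 14 of 24 were higher and 1 lower than with mut9, with a median of 1.08. Over all 30549 genes tested, 1572 were higher and 1431 lower than with mut9, or 9.83% in either direction. THBS1, named with the list, had 2.80 ± 0.14 SE, adjusted p = 3.43e-10. Interferon-stimulated genes were higher with DAF-mut9 in 17 of 28 cases and lower in 0 (median 0.93), although that list had no called member against iEF. Integrin and adhesion genes were higher in 15 of 27 and matrix genes in 17 of 32. The cytokine and regulator list, in contrast, gave 2 higher and 2 lower of 24, with a median of -0.03.

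Of the 12 named raised genes, 6 differed from mut9, where 9.83% of all genes did. IGFBP5 was higher than in the mut9 libraries, which were at 1430, 2280 and 935 CPM (log2 difference 1.35 ± 0.23 SE, adjusted p = 0.000489). POSTN (1.71 ± 0.31 SE, adjusted p = 0.000662), FRG2 (2.23 ± 0.37 SE, adjusted p = 0.000299), ECSCR (1.00 ± 0.26 SE, adjusted p = 0.0151) and HOXB8 (2.04 ± 0.28 SE, adjusted p = 3.29e-05) were higher too. HOXB8 was at 3.63, 4 and 3.84 CPM with mut9, inside its iEF range. SERTM1 was lower with DAF-mut9 than with mut9, which was at 219, 334 and 109 CPM (-2.06 ± 0.21 SE, adjusted p = 9.44e-07). For GAP43 the difference was -0.16 ± 0.24 SE, adjusted p = 0.795, for PCSK1 -0.03 ± 0.26 SE, adjusted p = 0.975 and for EMCN -0.08 ± 0.39 SE, adjusted p = 0.95. Of the 12 named lowered genes ABCA10 differed (-2.24 ± 0.57 SE, adjusted p = 0.0137), and IL6 had 0.36 ± 0.45 SE, adjusted p = 0.737 with mut9 at 2.1, 0.859 and 2.04 CPM.

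**Figure D5:**
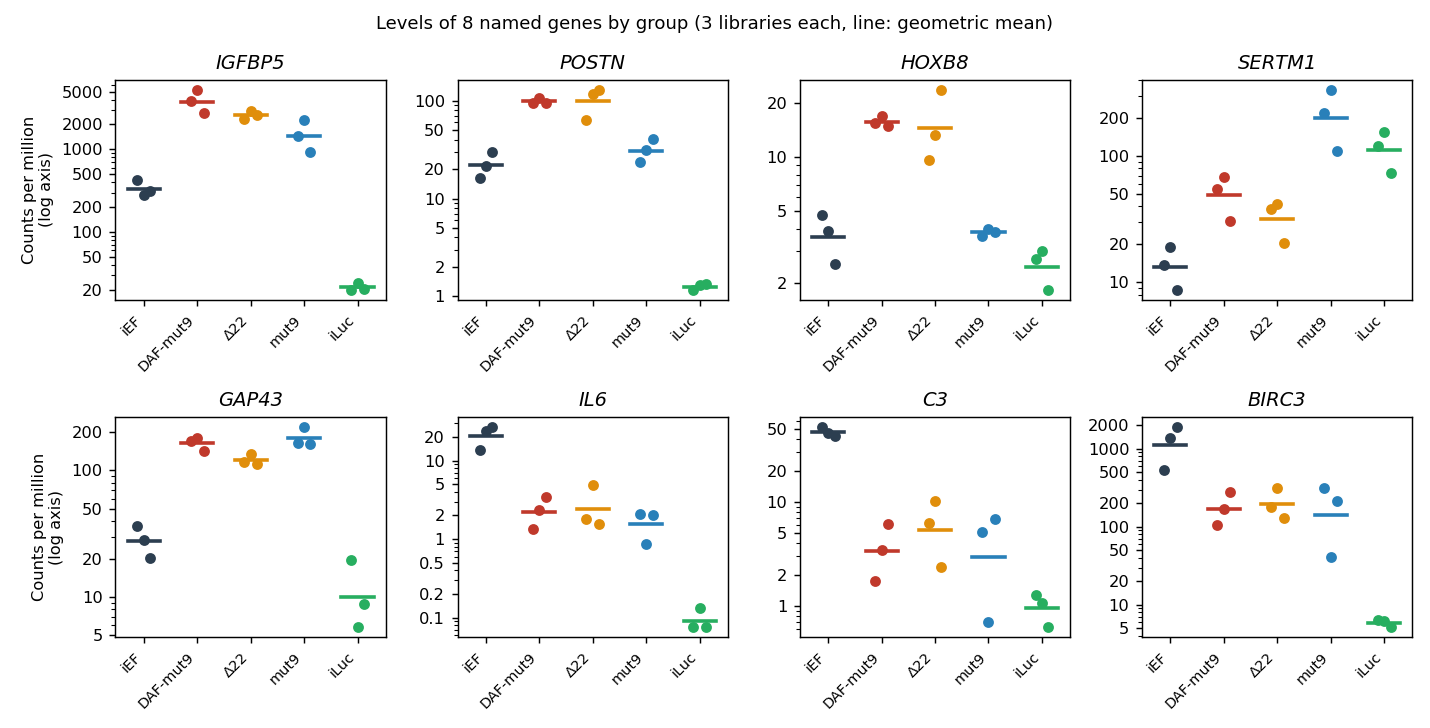
Expression in CPM (log axis) of 8 named genes in the 3 libraries each of iEF, DAF-mut9, Δ22, mut9 and iLuc, with the geometric mean as a line. The Δ22 mean lies nearer to DAF-mut9 than to iEF in each of these panels, mut9 lies near iEF for HOXB8 and far above both for SERTM1, and iLuc has the lowest mean in each panel but SERTM1.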

How the data were processed

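RNA-seq was compared in A673 cells as 21 libraries of 7 groups, with 3 replicates per group taken from the titles. Raw counts per gene (57820 Ensembl identifiers) were deposited by the authors, who ran bcl2fastq, STAR 2.5.1b and HTSeq on hg19 per the submitters' processing notes. The annotation release and the strand setting of the counting are not given in the sources used here. The authors also deposited ComBat-adjusted values, a batch-adjusted signal on the count scale with no fixed unit, which served here only as an alternative, and a table of their own fold changes and p-values, which was not used. The 5 summary lines of the count table that name no gene hold no values and were left out.

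All 21 libraries entered 1 edgeR quasi-likelihood fit (edgeR 4.0.16, R 4.3.3) with TMM scaling, group and replicate number, for the 30549 genes whose mean over libraries was 1 count or more. P-values were adjusted by Benjamini and Hochberg over these genes, and called means an adjusted p below 0.05. A log2 fold change is DAF-mut9 minus iEF from this fit, and its SE was taken from the estimate and the test statistic. Group deviations of same-numbered DAF-mut9 and iEF libraries correlated at 0.423, 0.168 and 0.12 over 12401 genes, so the numbers were treated as pairs. The labels do not say that replicates were separate cultures, while the authors describe replicate experiments of fusion depletion and cDNA delivery. The p-values measure the spread between these libraries. The procedure was tested on simulated counts.

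The genes named by size were the 12 raised and the 12 lowered protein-coding genes with the largest log2 fold change, a mean of at least 5 CPM over the 6 libraries, a call, at least a 2-fold change and the same sign in each replicate set. Beside them stand FLI1, EWSR1 and, in each of the 41 gene lists that is described, up to 4 called members by adjusted p, or up to 2 by level where none was called. The members and lists were chosen with earlier results of these data known, so the lists' counts are descriptions. Gene places and exon overlaps are from GENCODE 44 lifted to GRCh37, and promoter sequences from RefSeq on GRCh38.p14. The alternatives were DESeq2 1.42.0, limma 3.58.1 on log2 of the ComBat-adjusted values (scaled to CPM, plus 1), no replicate block, RLE scaling, other low-count filters, a fit of the compared groups alone, a further 2-fold requirement, and each library or replicate set left out. Results of some genes and of a list that rests on them are not reported here.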

Additional observations from a re-analysis of the deposited data

How the results depend on the processing

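The 1038 genes that differed between DAF-mut9 and iEF became 684 with no replicate block, 2243 with no low-count filter and 648 with a further 2-fold requirement, and 323 to 1131 with 1 library left out. Without replicate set 1, 2 or 3 of every group they became 196, 606 or 504. The 384 higher genes became 607 with DESeq2, 223 with no replicate block, 717 with no low-count filter and 197 at 2-fold, 156 to 381 with 1 library left out, and 96, 220 or 221 without set 1, 2 or 3. The 654 lower genes became 1526 with no low-count filter, 161 to 750 with 1 library left out, and 100, 386 or 283 without set 1, 2 or 3. DESeq2 (1508), RLE scaling (1016), edgeR's own filter (1079), the 6 libraries alone (782) and the ComBat-adjusted values (966) kept the total within 1.5 times. Against Δ22 the count of 0 became 14 with no low-count filter and stayed 0 in every other alternative run. Against mut9 the 3003 genes became 4848 in a fit of those groups alone and 1723 at 2-fold, 1754 to 2550 with 1 library left out, and 1354 or 1254 without set 1 or 2. Sets or libraries left out leave a group with 2 samples.

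For the 24 genes named by size, 373 alternative values were computed, of which 335 stayed called, 38 lost the call and none changed sign, and the ComBat-adjusted table holds 13 of the 24, 12 of them called, with POSTN not called. No call of these genes was lost with no replicate block. In these libraries 1 CPM stood for at least 32 counts, and ABCB1, ITGAM and ABCA10 had at most 34, 36 and 25 counts with DAF-mut9. The scatter of the iEF libraries (median SD of log2 CPM 0.204) exceeded that of DAF-mut9 (0.111). The parts of depth and scatter in the lost calls were not tested. Each group is 3 libraries of 1 cell line with 1 shRNA, and other effects of the vectors cannot be told apart from those of the construct.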

Other observations

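The genes in these paragraphs were chosen after their values were seen. MHC class II genes were higher with DAF-mut9 than in iEF. The 13 class II genes tested were the HLA-D genes, the invariant chain gene CD74 and CIITA, the class II transactivator. Of these, 10 were higher in edgeR's test (against 1.26% of all genes) and none lower (against 2.14%). All 13 had a positive log2 fold change, with a median of 2.24. Some levels were low, with HLA-DRB5, HLA-DOA and HLA-DQB1 at most at 1.12, 1.12 and 0.796 CPM with DAF-mut9. CIITA (chromosome 16, 10960079 to 11036878) was at 7.19, 7.24 and 5 CPM with DAF-mut9 and 1.89, 1.16 and 1.7 CPM in iEF (log2 fold change 2.05 ± 0.25 SE, adjusted p = 0.000134). HLA-DRA was at 5.01, 12.7 and 6.67 CPM against 0.327, 0.97 and 0.676 CPM (log2 fold change 3.61 ± 0.36 SE, adjusted p = 1.97e-05), and CD74 at 3.21, 7.35 and 8.51 CPM against 0.724, 3.82 and 2.05 CPM (log2 fold change 1.65 ± 0.42 SE, adjusted p = 0.0346), and the groups of CD74 overlapped. Without iEF replicate 3, 9 were called and CD74 was not (adjusted p = 0.146). Against mut9, 9 of the 13 were higher with DAF-mut9, where 9.83% of all genes differed in either direction. CIITA was at 1.18, 0.589 and 1.13 CPM in mut9 (log2 difference 2.77, adjusted p = 3.6e-07). In Δ22 against iEF, which shares the iEF libraries, the log2 fold changes were 1.46 for CIITA and 2.99 for HLA-DRA. HLA-DRB1 and HLA-DRB5 are near-identical copies that share reads, so their separate values are uncertain. Of the 8 hematopoietic markers, 1 was at 0 in all 6 libraries and the median log2 fold change of the 7 tested was 1.14. CD14, of monocytes and macrophages, was higher, at 1.95, 1.29 and 1.31 CPM against 0.817, 0.876 and 0.405 CPM (log2 fold change 1.14 ± 0.29 SE, adjusted p = 0.0333, and 0.193 without iEF replicate 3), ITGAM was lower, and PTPRC, of all leukocytes, had a log2 fold change of -0.08. CD68 was at 0.231, 0.137 and 0.167 CPM against 0.07, 0.0626 and 0.108 CPM (log2 fold change 1.14 ± 0.64 SE, adjusted p = 0.439). The part of these markers in the class II levels was not tested.

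Some neighbours of the named genes were also read. CD93 and THBD, which encodes thrombomodulin, lie on chromosome 20 with 29687 bases between them, and THBD rose from 12.2, 5.98 and 18.4 CPM to 40.5, 44.3 and 40.7 CPM (log2 fold change 1.87 ± 0.32 SE, adjusted p = 0.00241) beside CD93. BIRC2 and BIRC3 lie 7807 bases apart on chromosome 11, and BIRC2 fell from 769, 861 and 1160 CPM to 407, 433 and 470 CPM (log2 fold change -1.10 ± 0.23 SE, adjusted p = 0.0103), without a call when iEF replicate 3 was left out (adjusted p = 0.106). The ABCA transporter cluster on chromosome 17 was split. ABCA6 (log2 fold change 1.56 ± 0.20 SE, adjusted p = 0.00026), ABCA8 (log2 fold change 1.34 ± 0.31 SE, adjusted p = 0.0217) and ABCA9 (log2 fold change 1.59 ± 0.23 SE, adjusted p = 0.000504) rose while ABCA10 fell, and ABCA5, which shares exon bases with ABCA10, had log2 fold change -1.17 ± 0.37 SE, adjusted p = 0.0933. ABCA8 was not called without iEF replicate 3 (adjusted p = 0.139).

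EGFR, the epidermal growth factor receptor gene, was lower with DAF-mut9 than in iEF and higher than with mut9. Its levels were 31.2, 26.9 and 26.1 CPM with DAF-mut9, 90.3, 128 and 118 CPM in iEF (log2 fold change -2.02 ± 0.26 SE, adjusted p = 0.000254) and 12.5, 7.9 and 12.9 CPM with mut9 (log2 difference 1.33, adjusted p = 0.00154). FGG, of fibrinogen, had no count in any DAF-mut9 library, where 3 counts would have been at most 0.0838 CPM, and was at 1.54, 0.125 and 2.95 CPM in iEF.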
